A study of Homo sapiens with 18 samples.

Results

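VCaP is an established prostate cancer cell line that carries a fusion of the androgen-driven TMPRSS2 gene with ERG, so that the ETS transcription factor ERG is made at a high level. Here VCaP cells that hold an ERG-targeting short hairpin RNA (shERG) under a doxycycline-inducible promoter were compared with and without doxycycline (Dox) at 1 µg/mL, across all expressed genes. The 6 libraries of this comparison, of 18 in the series, were 3 of shERG cells given Dox (shERG-Dox) and 3 of the same cells given vehicle, labelled DMSO (shERG-vehicle). The other 12 libraries were of VCaP cells labelled without the hairpin, treated with DMSO or with 50 µM of the ERG-binding compound PBITE-1 for 4, 8 or 12 h. The labels give no duration of Dox for these 6 libraries.

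The design limits what the comparison can be tied to. Each shERG-Dox library differs from each shERG-vehicle library by Dox itself as well as by the induced hairpin, and no Dox library of cells without the ERG hairpin was analysed here, so an effect of Dox, an off-target effect of the hairpin and an effect of less ERG cannot be told apart. Both groups carry the same lentiviral hairpin cassette, and whether the line is 1 clone is not given in the sources used here. Nothing in the labels says that the 3 libraries of a group came from separate cultures, so the p-values measure the spread between these libraries, which may be technical. In bulk RNA, fewer cells of a kind and less of a transcript per cell cannot be told apart.

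As background, ETS factors bind a short GGAA core in promoters and enhancers and can either raise or lower the genes beside it. Ion channels, adhesion molecules, lysosomal enzymes and interferon-stimulated genes are outside the cell cycle, and their responses are given most room below.

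The libraries held 11750649 to 16202892 counts each over 22034 genes. A gene was tested when edgeR's filter on low counts kept it, which left 14164 genes. Levels are in CPM, the counts of a gene relative to the TMM-scaled library total. TMM sets the bulk of genes level between libraries. With this unit levels can be compared between samples but not between genes of unequal length. Differences are log2 fold changes of shERG-Dox minus shERG-vehicle from limma-voom with their standard error (SE), and every p below is adjusted by Benjamini-Hochberg over all genes tested unless it is called an exact permutation p. A gene is called higher or lower, and said to have risen or fallen, when its adjusted p was under 0.05 and its log2 fold change was above 1 or below -1. The 13 mitochondrially encoded genes took 9.01% ± 0.108 (SD, n = 3) of counts in shERG-vehicle and 8.50% ± 0.356 (SD, n = 3) in shERG-Dox, and the 10 most abundant genes took 9.53% ± 0.0941 and 8.75% ± 0.333. Both differences had an exact permutation p of 0.1, two-sided, which is the smallest that 3 against 3 allows. Whether the counting used strand is not given in the sources used here, so a gene that overlaps another may hold its reads, and besides those marked where they are described LOX, DERL3, FAS, OPTN, PLXNA3, MAP1LC3B, FZD4, CENPN, DCHS2, CACNA2D2, HLA-B and SLC30A4 overlap a gene on the other strand, and SATB1, TIMP2, C1R, HLA-B, HLA-C, ABCA5 and HOXC4 overlap one on the same strand.

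ERG, the hairpin's target (chr21:38380027-38661780 in the hg38 reference, minus strand), was at 461, 449 and 433 CPM in shERG-vehicle and at 166, 167 and 159 CPM in shERG-Dox. Every Dox library was below every vehicle library, with a log2 fold change of -1.44 (SE 0.035, adjusted p = 3.29e-22), so the target was lower in the libraries labelled with Dox. MYC, a transcription factor for growth genes, was at 479, 476 and 480.1 CPM with vehicle and 125, 119 and 129 CPM with Dox, a log2 fold change of -1.95 (SE 0.036). CDKN1A, the p21 inhibitor of cyclin-dependent kinases, was at 12.8, 11.9 and 12 CPM with vehicle and 20.6, 20.8 and 20.3 CPM with Dox. Its groups did not overlap, but its log2 fold change of 0.75 (SE 0.099, adjusted p = 1.84e-07) was under the size required for a call, which it passed under scaling by total counts (1.01).

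With Dox, 1699 genes rose (12.0% of genes tested) and 1019 fell (7.19%). Of the genes that fell, 113 were among the 152 tested members of the S phase, G2/M and MYC target lists, and 0 genes that rose were, so 1699 higher and 906 lower genes lay outside those lists. The rises were also the steeper ones, since 548 genes rose by more than 2 on the log2 scale and 64 fell by more than that. In 1646 of the higher and 1004 of the lower genes no Dox library overlapped a vehicle library. The thresholds for a call favour such genes, and the share over all genes tested is not given here, so these counts add no separate support. At an adjusted p under 0.05 with no limit on size, 4969 genes were higher (35.1%) and 5005 lower (35.3%), so without the limit on size the numbers in the 2 directions were close.

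The rises came mostly from genes of low level, and the falls reached abundant genes. The median level in shERG-vehicle was 1.43 CPM for the higher genes and 44.3 CPM for the lower genes, beside 23.4 CPM for all genes tested. Of the 3478 genes at 1 to 10 CPM as a mean over the 6 libraries, 928 rose (26.7%) and 217 fell, with a median log2 fold change of 0.36. Of the 2210 genes at 100 to 1000 CPM, 28 rose (1.27%) and 186 fell, with a median of -0.20. Of the 79 genes above 1000 CPM, 1 rose, which was the metalloprotease ADAM9, and 9 fell. As a share of all counts, the higher genes together went from 1.03% to 1.05% in the vehicle libraries to 3.43% to 3.46% in the Dox libraries, and the lower genes from 11.01% to 11.3% down to 5.44% to 5.52%.

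**Figure D1:**
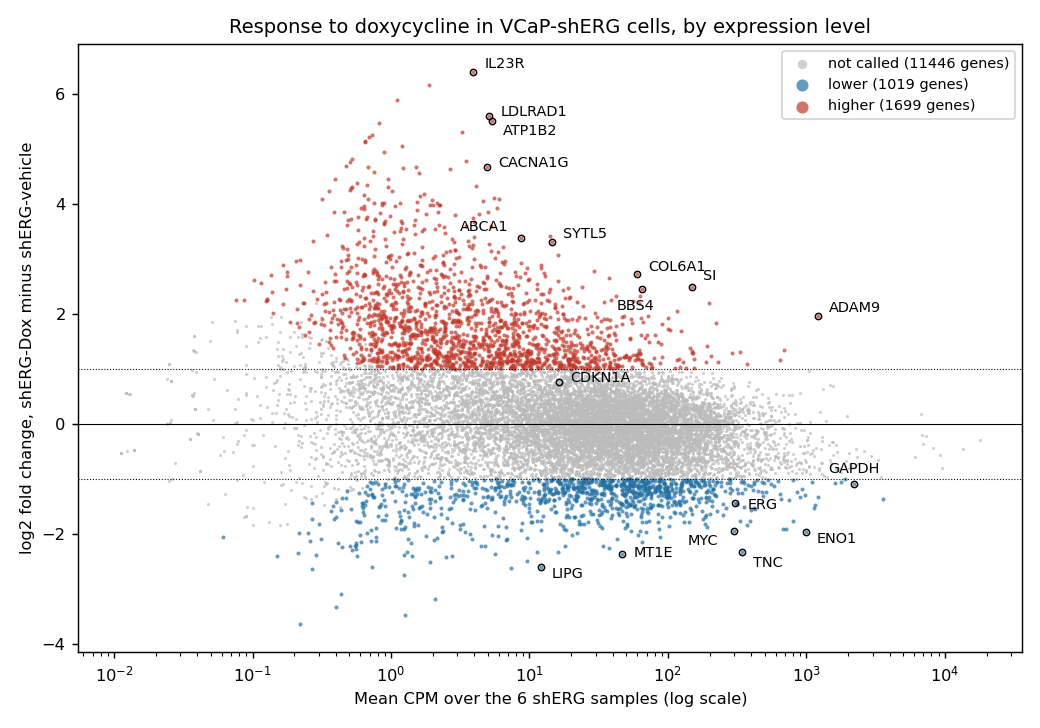
Log2 fold change of shERG-Dox minus shERG-vehicle (vertical axis) against mean CPM over the 6 libraries (horizontal axis, log scale) for the 14164 genes tested, 1 point a gene. Genes that rose (1699, red) lie mostly at the left, and genes that fell (1019, blue) reach the abundant genes at the right, such as GAPDH.

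More genes were detected with Dox. Genes with at least 1 count numbered 16686 to 16826 in the Dox libraries and 15850 to 16049 in the vehicle libraries. The vehicle libraries held more counts in total. TMM factors were 0.91 to 0.92 with vehicle and 1.09 to 1.10 with Dox, so the TMM-scaled totals lay closer together. Of 4699 genes with no count in any vehicle library, 1659 had counts with Dox, while of 3753 genes with no count in any Dox library, 713 had counts with vehicle. By annotated class, 1591 of 13468 tested protein-coding genes rose and 964 fell. Processed pseudogenes, which are copies of spliced transcripts and share reads with their parent genes, had a median of -0.40 on the log2 scale over 227 tested, whereas other pseudogenes had 0.26 over 416.

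The balance of rises and falls depended on scaling. When libraries were scaled by total counts alone, the median over all genes moved from 0.02 to 0.28, 2430 genes rose and 506 fell, so that 82.8% of calls were rises in place of 62.5%. Upper-quartile scaling gave 2112 and 684 (75.5%). Changes below are therefore relative to a TMM-scaled median near 0, and a direction that flips under scaling by total counts is marked as such.

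The plot of functional lists sets the share of each list that rose or fell beside these backgrounds. The lists are descriptive, since they were chosen with earlier results of these data known, and a listed gene of low level could enter the test through the Dox group alone. Channel, synaptic, guidance, protocadherin and cytokine lists hold many genes of low level. Of all genes tested, 26.7% rose at 1 to 10 CPM and 27.8% below 1 CPM, so the counts of these lists stand beside those shares as well as beside 12.0%. Small counts are loose: leaving out 1 library moved 30 of the 148 list counts by over 1.5 times, of which 29 were counts of at most 5 genes.

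**Figure D2:**
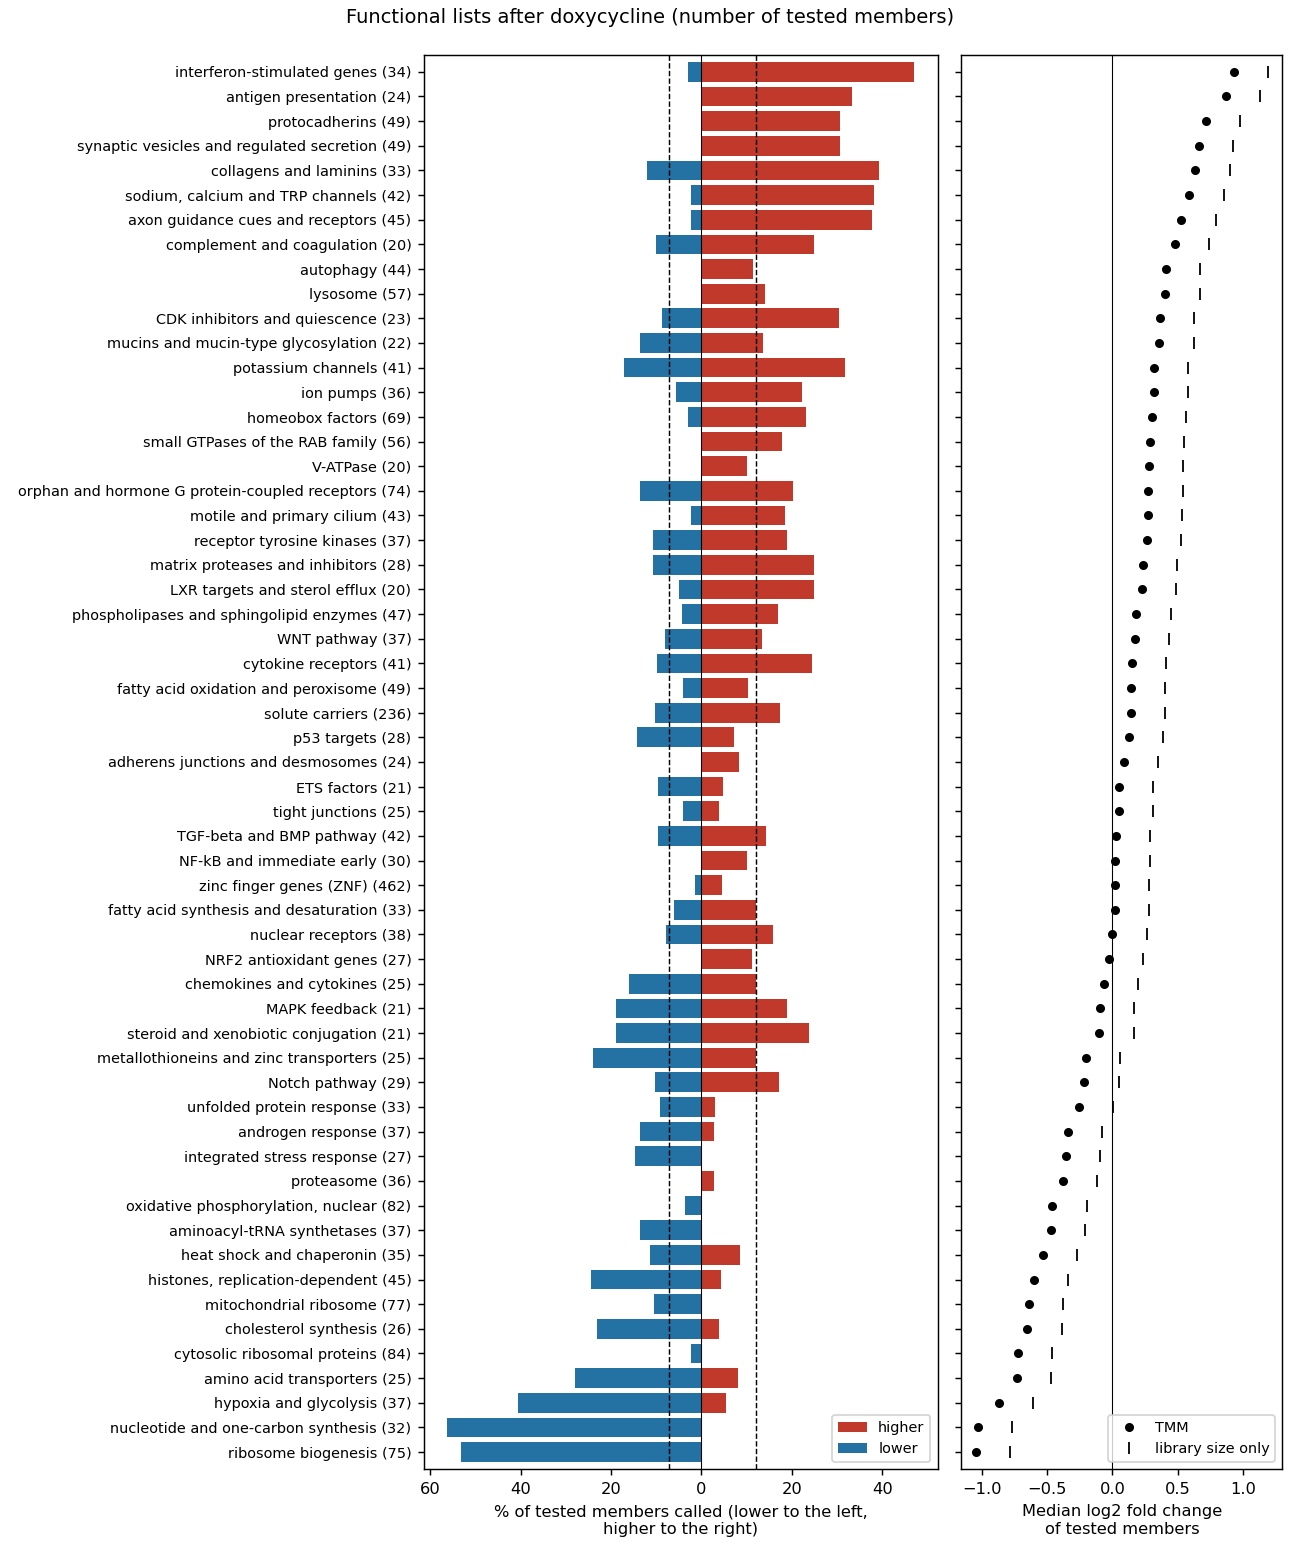
Left, for each list with at least 20 tested members other than S phase, G2/M and MYC targets, the percent of tested members that rose (red, to the right) or fell (blue, to the left) with Dox, with the share over all genes tested as dashed lines (12.0% and 7.19%). Right, median log2 fold change of the tested members under TMM scaling (dots) and under scaling by library size only (ticks), from interferon-stimulated genes at the top (0.93 under TMM) to ribosome biogenesis at the bottom (-1.04).

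Genes for this ranking were called, had no overlap between groups and had a mean count of at least 50 over the 6 libraries. Among them the 20 largest rises on the log2 scale ran from 3.26 to 6.40. These rises took genes from 0.0780 to 2.75 CPM in vehicle up to 7.03 to 26.2 CPM. At such vehicle levels a gene reached that mean count mostly through its Dox libraries, so the choice favoured rises. IL23R, a subunit of the receptor for interleukin 23 (chr1:67138907-67259979), had 2, 1 and 0 counts in the vehicle libraries and 115, 116 and 77 counts in the Dox libraries. With so few vehicle counts its size is loose, and the ratio of summed and depth-scaled counts was 104 with a 95% interval of 35.4 to 509 that covers counting error only. LDLRAD1, a membrane protein with a low-density lipoprotein receptor type A domain, went from 0.0831, 0.338 and 0.150 to 10.2, 9.79 and 10.3 CPM. ATP1B2, the beta 2 subunit of the sodium-potassium pump, went from 0.665, 0.135 and 0.0749 to 9.96, 11.3 and 10.2 CPM, and its vehicle libraries differed several-fold among themselves at this low level while all lay far below the Dox libraries.

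Several of these 20 genes encode membrane and signalling proteins. CACNA1G, a T-type calcium channel, rose from 0.499, 0.271 and 0.300 to 9.37, 10.3 and 8.99 CPM (log2 fold change 4.67, SE 0.4). KCNN3, a calcium-activated potassium channel, rose from 0.499, 0.135 and 0.674 to 7.41, 7.31 and 8.61 CPM, and KCNA2, a voltage-gated potassium channel, from 0.582, 0.541 and 0.524 to 7.99, 8.55 and 7.91 CPM. Lack of overlap between the groups was part of the rule that chose these channels. IGLON5, a cell adhesion molecule of the immunoglobulin superfamily, and MAGI2, a scaffold protein of cell junctions, had log2 fold changes of 4.09 (SE 0.34) and 3.60 (SE 0.36). TNS1, which links integrins to actin, CLIP3, a microtubule-binding protein of trafficking vesicles, and DCHS2, a large cadherin, rose by 4.11, 3.42 and 3.26 on the log2 scale.

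The rest of the 20 include enzymes and factors of lipid, nucleotide and steroid metabolism. ABCA1, the transporter that loads cholesterol onto apolipoproteins, rose from 1.25, 1.89 and 1.35 to 17.6, 15.7 and 14.2 CPM (log2 fold change 3.37, SE 0.25, adjusted p = 4.43e-12). HSD17B14, a 17-beta-hydroxysteroid dehydrogenase, rose by 3.74, PLAAT4, a phospholipase and acyltransferase, by 3.67, PLD1, a phospholipase D, by 3.26, and NT5C1A, a cytosolic nucleotidase, by 3.85. SYTL5, a synaptotagmin-like effector of RAB27 in vesicle transport, measured 27.4, 26.5 and 24.6 CPM in the Dox libraries and 2.83, 1.83 and 3.60 CPM with vehicle. CREB5, a transcription factor of the CREB family, rose by 4.04 and the uncharacterised CTXND1 by 3.92. ADAM19, a membrane metalloprotease, rose by 3.40, and it overlaps CYFIP2 on the other strand.

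In CPM the largest rise was that of ADAM9, a membrane metalloprotease that sheds cell-surface proteins, from 485, 497 and 517 to 1887, 1989 and 1952 CPM (log2 fold change 1.96, SE 0.026, adjusted p = 1.93e-27). The 3 Dox libraries were all more than 3 times above the vehicle libraries. SYTL2, another RAB27 effector, rose from 366, 391 and 424 to 1003, 986 and 992 CPM, and RDH11, a retinol dehydrogenase abundant in prostate epithelium, from 404, 384 and 406 to 869, 908 and 889.7 CPM. SI, the intestinal brush-border enzyme sucrase-isomaltase, rose from 43.7, 45 and 47.3 to 242, 257 and 265 CPM (log2 fold change 2.49, SE 0.054), and AHNAK, a giant scaffold protein beneath the plasma membrane, from 71.3, 69.6 and 73.1 to 312, 335 and 335 CPM. Here too the rule that chose the genes required groups without overlap. SLC30A4, a zinc exporter, RDX, which ties actin to the membrane, TMEM59, a regulator of glycosylation and autophagy, and CPEB4, an RNA-binding protein that controls polyadenylation, rose by 1.30, 1.09, 1.28 and 1.42 on the log2 scale.

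**Figure D3:**
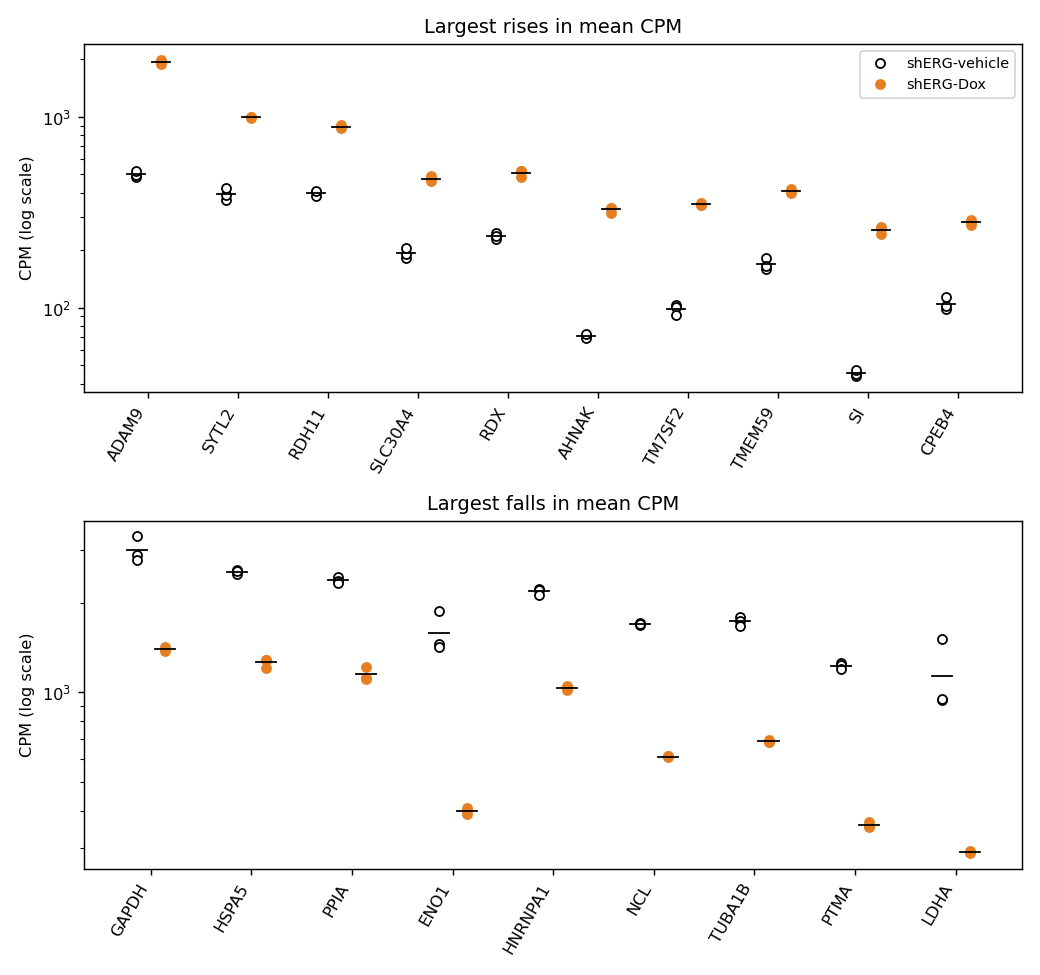
CPM (log scale) in each of the 3 shERG-vehicle (open) and 3 shERG-Dox (orange) libraries for genes with the largest rise (top, 10 genes) and the largest fall (bottom, 9 genes) in mean CPM outside the S phase, G2/M and MYC target lists, with bars at the group means. The genes were chosen among those without overlap between groups, and LDHA and ENO1 have 1 vehicle library above the other 2.

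Most luminal epithelial markers, which the labelled cell type should express, changed by less than the size required for a call. Of 20 listed, 19 were tested, of which 0 rose and 1 fell (6 were higher and 8 lower at an adjusted p alone), and the median log2 fold change was -0.02, which turned to 0.25 under scaling by total counts. HOXB13, a prostate homeobox factor, was at 284 ± 6.98 CPM with vehicle and 479 ± 5.86 CPM with Dox (mean ± SD, n = 3). KLK3, which encodes PSA, was at 135 ± 12.3 CPM with vehicle and 113 ± 3.62 CPM with Dox. Under scaling by total counts HOXB13 passed the size required (1.01) and KLK3 turned from -0.24 to 0.018 on the log2 scale. HOXB13 and KLK3 are markers outside the rule for named genes and were chosen after their values were seen. Of 37 tested androgen response genes, 5 fell and 1 rose (median -0.34). FKBP5, a co-chaperone of steroid receptors and an androgen target, fell from 236, 235 and 233 to 79.9, 86.3 and 82.4 CPM, BMPR1B, a bone morphogenetic protein receptor, from 89.8, 97.8 and 99.4 to 35, 41.9 and 34.4 CPM, and CENPN, a centromere protein, from 82.7, 87.6 and 80.4 to 27.3, 29.9 and 31.4 CPM. TMPRSS2, the androgen-driven fusion partner of ERG, fell from 75.9, 70.7 and 64.8 to 35.1, 32.1 and 37.1 CPM (log2 fold change -1.02, SE 0.07). The groups did not overlap, but the value was just past the size required and was -0.97 without vehicle replicate 1, -0.96 without Dox replicate 2 and -0.75 under scaling by total counts.

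Markers of other cell types were at 0, low, or moved both ways, and neuroendocrine markers were more often higher than lower. Among basal epithelial markers 9 of 15 listed were tested and 4 rose, all from below 1 CPM, while ITGA6, the alpha 6 integrin, fell from 133, 137 and 129.9 to 57.5, 58.3 and 62.9 CPM, and KRT17 and S100A2 were at 0 in all 6 libraries. Of 15 tested neuroendocrine markers 6 rose (40%, beside 12.0% of all genes) and 1 fell (6.67%, beside 7.19%). At an adjusted p alone 11 were higher and 3 lower (median log2 fold change 0.74). Their summed level was 447 to 451 CPM with vehicle and 735.5 to 755 CPM with Dox. NCAM1, a neural cell adhesion molecule, rose from 10.6, 14 and 13.2 to 43.5, 44.1 and 41.9 CPM, CHGB, a granin of secretory granules, from 86, 87.6 and 89 to 215, 219 and 209 CPM, SCG2, another granin, from 2.49, 1.62 and 3.15 to 9.30, 9.79 and 9.23 CPM, and ENO2, the neuronal enolase, by 1.19 on the log2 scale. The 1 that fell was the factor FOXA2 (log2 fold change -1.25, SE 0.44). Without Dox replicate 2, 0 fell. The factors INSM1 and ONECUT2 were at 8.04 and 56.4 CPM with vehicle and 5.67 and 46.7 CPM with Dox, with limma-voom adjusted p of 0.00820 and 9.72e-04 and no call. FOXA2, INSM1 and ONECUT2, the 3 that were lower at an adjusted p alone, were named after their values were seen. The neuroendocrine factor NEUROD1 was at 0 in all 6 libraries. The endothelial markers CDH5 and EMCN and the fibroblast markers COL1A2, COL3A1 and FAP were also at 0 in all 6. Of 8 tested endothelial markers EGFL7 (5.86 to 12.8 CPM) and VWF (0.459 to 1.04 CPM) rose and ENG (45.7 to 22.4 CPM) fell. Of 5 tested fibroblast and immune markers COL1A1 (1.36 to 5.62 CPM) and LUM (0.554 to 2.41 CPM) rose and 0 fell. The summed level of the fibroblast and immune list was 3.25 to 4.57 CPM with vehicle and 10.2 to 11.4 CPM with Dox.

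Ion channels were among the lists with many rises. Of 67 listed sodium, calcium and TRP channel genes 42 were tested, of which 16 rose (38.1%, beside 12.0% of all genes) and 1 fell (median 0.59). CACNA1C, the L-type calcium channel of heart and brain, rose from 5.49, 5.54 and 4.87 to 22.2, 18.7 and 19.9 CPM, and CACNA2D2, an auxiliary calcium channel subunit, from 7.32, 6.96 and 5.84 to 25.4, 26 and 24.1 CPM. Of 41 tested potassium channels 13 rose (31.7%) and 7 fell (17.1%, beside 7.19% of all genes). The falls numbered 4 without Dox replicate 3 and 4 under scaling by total counts. Both shares of rises also stand beside the 26.7% of genes at 1 to 10 CPM that rose, and that of potassium channels was near it. KCND3, which carries A-type potassium current, rose from 5.32, 6.09 and 5.99 to 30.6, 31.2 and 35.4 CPM, and KCNT1, a sodium-activated potassium channel, from 4.82, 3.65 and 3.44 to 19.7, 21.8 and 19.2 CPM. The calcium pumps ATP2B2 and ATP2B4 of the plasma membrane and the phospholipid flippase ATP8B2 rose by 2.46, 1.97 and 2.43 on the log2 scale, within a list of 36 tested pumps of which 8 rose and 2 fell.

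Some synaptic vesicle, axon guidance and protocadherin genes, best known from neurons, rose as well, while most did not pass. Of 49 tested genes of synaptic vesicles and regulated secretion 15 rose (30.6%) and 0 fell (median 0.66). SYT13, a synaptotagmin, rose from 1.58, 1.49 and 1.42 to 10.8, 13.8 and 11 CPM, SYN1, a synapsin of vesicle clusters, from 6.65, 5.28 and 5.54 to 27.4, 23.6 and 23.3 CPM, and RAB26, a small GTPase of secretory vesicles, by 2.15 on the log2 scale. The groups of these genes did not overlap between conditions, but the locus of SYN1 overlaps ARAF on the other strand. Of 45 tested axon guidance genes 17 rose (37.8%) and 1 fell (median 0.53). NEO1, the neogenin receptor for netrins, rose from 42.9, 45.4 and 50.7 to 151, 155 and 154 CPM, PLXNA3, a semaphorin receptor, from 22.4, 21.4 and 21.9 to 64.5, 62.9 and 60.4 CPM, SEMA6B, a transmembrane semaphorin, by 2.84 and EFNB3, an ephrin, by 2.01. Of 49 tested protocadherins, adhesion molecules encoded in clusters, 15 rose (30.6%) and 0 fell (median 0.72). The shares of rises in these lists stand beside 12.0% of all genes and 26.7% of genes at 1 to 10 CPM. Those of the synaptic and protocadherin lists were near the latter. PCDHB10 went from 9.89, 10.6 and 11.2 to 24.7, 25.6 and 26.3 CPM, and since clustered protocadherins share exons or near-identical sequence, reads may be split between members.

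**Figure D4:**
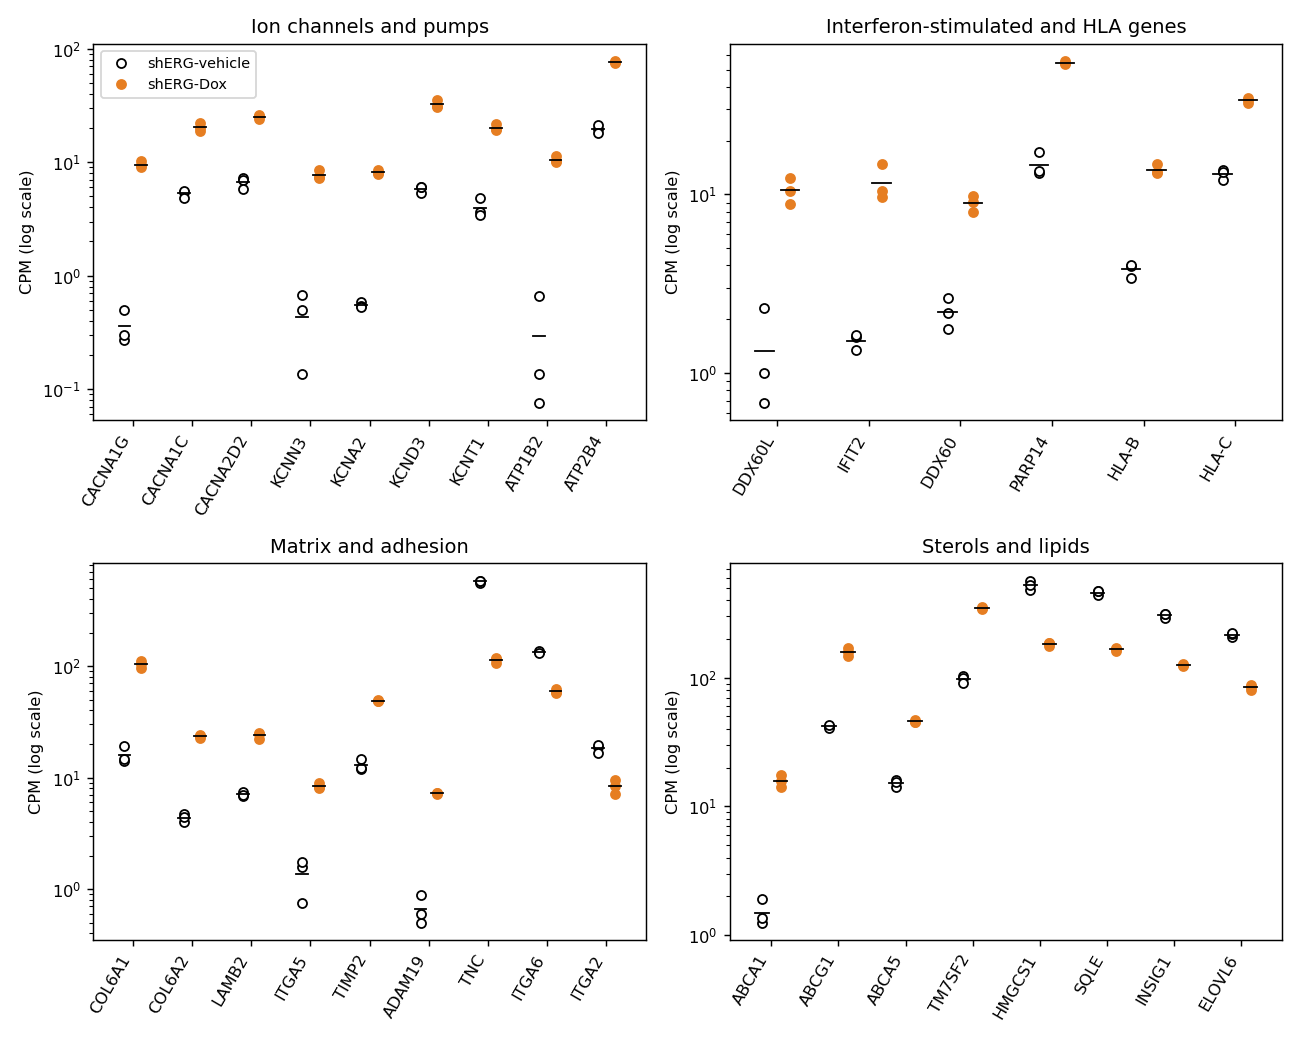
CPM (log scale) in each of the 3 shERG-vehicle (open) and 3 shERG-Dox (orange) libraries for genes of 4 groups, with bars at the group means. The ion channels and pumps, interferon-stimulated and HLA genes shown were picked among genes that rose, so all are higher with Dox. Other members of their lists fell or were not called. Of the matrix genes shown, TNC, ITGA6 and ITGA2 are lower. Of the sterol and lipid genes, those of efflux (ABCA1, ABCG1, ABCA5) and the synthesis enzyme TM7SF2 are higher. HMGCS1 and SQLE of synthesis, the regulator INSIG1 and ELOVL6 are lower.

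Matrix genes moved both ways. Of 33 tested collagens and laminins 13 rose and 4 fell (median 0.63), yet their summed level went from 1113 to 1134 CPM with vehicle down to 978 to 1014 CPM with Dox. COL6A1 and COL6A2, 2 chains of type VI collagen that lie side by side on chromosome 21, rose from 19.3, 14.1 and 14.8 to 112, 104 and 95.3 CPM (log2 fold change 2.72, SE 0.097) and from 3.99, 4.73 and 4.42 to 23.4, 22.9 and 23.9 CPM (log2 fold change 2.40, SE 0.14). LAMB2, a laminin chain of basement membranes, rose by 1.75 and COL14A1, a fibril-associated collagen, fell to 3.97 from 9.48 CPM. TNC, the matrix protein tenascin C, fell from 559, 585 and 578 to 118, 116 and 106 CPM (log2 fold change -2.34, SE 0.039), and LOX, which cross-links collagen, from 10.7, 7.71 and 9.88 to 1.31, 2.10 and 2.02 CPM. Both genes were chosen among those without overlap between groups.

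Of 19 tested integrins 6 rose and 2 fell. ITGA5, the fibronectin receptor chain, rose from 1.58, 1.76 and 0.749 to 8.07, 9.02 and 8.30 CPM, whereas ITGA2, a collagen receptor chain, fell from 19, 19.5 and 16.6 to 8.43, 7.07 and 9.54 CPM. TIMP2, an inhibitor of matrix metalloproteases, rose from 14.6, 12 and 12.2 to 48.8, 49.7 and 48.4 CPM, among 28 tested matrix proteases and inhibitors of which 7 rose and 3 fell. Few cell junction genes were called, with 1 of 25 tested tight junction genes and 2 of 24 tested adherens junction and desmosome genes rising. These were TJP3, a scaffold of tight junctions, and PPL and NECTIN4, of desmosomes and adherens junctions, with log2 fold changes of 2.08, 2.22 and 1.18. Of 43 tested cilium genes 8 rose and 1 fell, led by BBS4, a subunit of the complex that carries proteins into cilia, from 21.5, 18.5 and 19.9 to 108, 112 and 107 CPM, and DNAH5, a dynein of motile cilia, from 58.6, 61.3 and 56.5 to 179, 191 and 204 CPM.

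Lists of signalling pathways moved both ways and, for TGF-beta and WNT, at shares near the background of 12.0% and 7.19%. In the TGF-beta and BMP list 6 of 42 tested genes rose (14.3%) and 4 fell (9.52%). LTBP2, which binds matrix microfibrils, rose by 3.01, TGFBR3, the co-receptor betaglycan, by 1.41, and GREM1, a secreted BMP antagonist, fell from 25, 28.8 and 26.7 to 9.74, 10.03 and 10.2 CPM. In the WNT list 5 of 37 rose (13.5%), all with a mean count under 50, and 3 fell (8.11%). FZD8 and FZD4, both frizzled receptors, and ROR1, a WNT5A receptor, fell to 7.65, 60.01 and 10.5 CPM from 18.2, 126 and 23.9 CPM. HES1, a Notch target repressor, fell from 8.56, 9.40 and 10.6 to 2.11, 2.49 and 2.25 CPM while HES2 rose from 2.58, 2.50 and 3.44 to 9.81, 7.85 and 9.69 CPM. ERBB3, a neuregulin receptor, and EPHB6, an ephrin receptor without kinase activity, rose by 1.34 and 1.56, in a list of 37 tested receptor tyrosine kinases of which 7 rose and 4 fell. In the MAPK feedback list 4 of 21 rose and 4 fell, with the Ras-MAPK inhibitor SPRY1 falling to 5.38 from 14.6 CPM and DUSP8, a phosphatase of MAP kinases, rising to 27.9 from 11.3 CPM. The ETS list itself, with 21 tested, had 1 that rose and 2 that fell, which were ERG and ETS2 (23.3 to 9.26 CPM), and ELF5 rose by 1.17.

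Interferon-stimulated genes, which cells normally raise after sensing interferon or viral RNA, had the highest median of the lists with at least 20 genes tested (16 of 34 rising, 47.1%). Of 45 listed, 34 were tested, and 1 of them fell (median log2 fold change 0.93). The share that rose stands beside 12.0% of all genes and 26.7% of genes at 1 to 10 CPM. The number of rises was 11 to 21 over the alternatives. The summed level of the list was 613 to 632 CPM with vehicle and 707 to 741 CPM with Dox. Promoters of 3 of the 4 members named by size are shown, that of IFIT2 not being analysed here, because each holds an interferon response element, written as GAAA, any 2 bases and GAAA again, on either strand and in capitals. They are RefSeq promoters on GRCh38.p14 of 300 bases, from 250 before to 50 after the annotated start, at chr4:168480443-168480742 (minus strand), chr4:168318703-168319002 (minus strand) and chr3:122680589-122680888 (plus strand).
DDX60L: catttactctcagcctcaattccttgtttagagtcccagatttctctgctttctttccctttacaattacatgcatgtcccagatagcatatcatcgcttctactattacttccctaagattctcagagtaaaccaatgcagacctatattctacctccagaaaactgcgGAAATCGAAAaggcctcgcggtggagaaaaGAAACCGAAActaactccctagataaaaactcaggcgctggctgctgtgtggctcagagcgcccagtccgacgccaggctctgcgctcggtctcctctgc
DDX60: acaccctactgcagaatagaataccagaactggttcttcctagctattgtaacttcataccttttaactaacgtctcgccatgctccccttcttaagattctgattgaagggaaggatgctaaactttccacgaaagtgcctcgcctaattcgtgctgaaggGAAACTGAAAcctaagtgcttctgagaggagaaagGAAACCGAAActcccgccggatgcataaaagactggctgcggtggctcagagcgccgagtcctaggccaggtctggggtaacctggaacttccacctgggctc
PARP14: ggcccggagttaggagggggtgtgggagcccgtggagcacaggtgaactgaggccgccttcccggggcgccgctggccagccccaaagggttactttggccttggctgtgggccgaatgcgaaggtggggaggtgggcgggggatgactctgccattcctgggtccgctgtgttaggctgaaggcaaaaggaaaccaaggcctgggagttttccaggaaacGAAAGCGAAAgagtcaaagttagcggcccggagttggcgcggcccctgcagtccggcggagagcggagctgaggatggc
DDX60L and DDX60, neighbouring helicases of antiviral defence, hold 2 matches each and PARP14, a mono-ADP-ribosyltransferase, 1. Searched on both strands, the element was in 3.65% of all 27305 promoters, in 3.89% of those of higher genes and in 2.58% of those of tested genes that were neither higher nor lower. The motif was picked after the values were seen, and a match is a description of letters, not a bound site.

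DDX60L was at 0.998, 0.676 and 2.32 CPM with vehicle and 8.79, 12.3 and 10.5 CPM with Dox (log2 fold change 3.13, SE 0.32), and DDX60 at 2.16, 1.76 and 2.62 and 7.92, 9.79 and 9.07 CPM (log2 fold change 2.03, SE 0.22). PARP14 was at 13.1, 13.5 and 17.2 CPM with vehicle and 54.6, 53.7 and 55.7 CPM with Dox (log2 fold change 1.91, SE 0.091, adjusted p = 3.21e-16). IFIT2, which blocks translation of viral RNA, rose from 1.58, 1.62 and 1.35 to 14.8, 9.72 and 10.5 CPM, and it overlaps LIPA on the other strand. For all 4 genes the groups were apart, although DDX60L differed more than 3-fold among the vehicle libraries. DDX60 and DDX60L are similar in sequence, so that reads may be split between them. CXCL11, an interferon-induced chemokine of the cytokine list, went the other way, from 14.9, 18.3 and 15.8 to 2.18, 2.72 and 4.11 CPM (log2 fold change -2.49, SE 0.2).

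Of 24 tested antigen presentation genes 8 rose and 0 fell (median 0.86), although their summed level, set by abundant members, went from 7404 to 7499 CPM down to 6078 to 6291 CPM. HLA-B and HLA-C, heavy chains that present peptides to T cells, both rose. HLA-B went from 3.41, 3.99 and 4.04 to 13.4, 13.1 and 14.8 CPM and HLA-C from 13.7, 12 and 13.3 to 34.8, 33.7 and 32.6 CPM, with no overlap between the groups. HLA-DRB1, a class II chain, had a log2 fold change of 1.38 (SE 0.26). HLA genes are similar to each other and vary between people, so counts assigned to 1 of them are uncertain. C1R, a protease of the classical complement pathway, rose from 5.24, 5.54 and 3.82 to 24.4, 21.8 and 22.2 CPM, and among cytokine receptors IL17RC rose by 1.62 and IL1RAPL1 was lower, at 4.79 against 12.6 CPM. TNFSF10, the death ligand TRAIL, rose by 1.25, while FAS and TNFRSF10A, 2 death receptors, fell from 77.1, 84.8 and 78.4 to 26.7, 29.6 and 30.3 CPM and from 28.2, 29.8 and 31.4 to 11.5, 8.94 and 10.7 CPM.

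Lysosome and autophagy genes were mostly higher, by small amounts. Of 57 tested lysosome genes 8 rose and 0 fell, near the background, but 41 were higher and 5 lower at an adjusted p under 0.05 alone, beside 35.1% and 35.3% of all genes, with a median of 0.40. CTSF and CTSK, both cysteine cathepsins, rose from 30.3, 27.5 and 28.2 to 101, 106 and 103 CPM and from 2.99, 3.85 and 3.37 to 14.7, 10.6 and 10.8 CPM, and ARSA and SMPD1, which degrade sulfatide and sphingomyelin, rose by 1.29 and 1.13. Of 44 tested autophagy genes 5 rose and 0 fell, with 31 higher and 3 lower at an adjusted p alone (median 0.41). OPTN, an autophagy receptor for damaged mitochondria and microbes, rose from 12.7, 12.9 and 10.9 to 55.9, 59.5 and 55 CPM (log2 fold change 2.22, SE 0.092). MAP1LC3B and GABARAPL1, ubiquitin-like proteins of the autophagosome, rose from 9.81, 9.87 and 10.04 to 20.9, 22.8 and 21 CPM and from 10.6, 9.60 and 7.41 to 24.6, 23.2 and 21.8 CPM. In the proteasome list 1 of 36 rose and 0 fell, with a median of -0.38.

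Sterol genes moved both ways, and most were not called. Of 20 tested genes of sterol efflux and LXR targets, which the oxysterol-sensing LXR receptors activate, 5 rose and 1 fell. ABCG1, which passes cholesterol to lipoproteins, rose from 42.1, 40.4 and 43.1 to 169.8, 159 and 148 CPM (log2 fold change 1.92, SE 0.061) and ABCA5 by 1.58, beside ABCA1 above. Of 26 tested cholesterol synthesis genes 6 fell and 1 rose (3 fell under scaling by total counts), and the median of -0.65 kept its sign under each scaling. HMGCS1 and SQLE, early and middle enzymes of the pathway, fell from 479, 569 and 526 to 186, 188 and 178 CPM and from 436, 471 and 471 to 171, 162 and 166 CPM, and INSIG1, a sterol-responsive regulator, from 291, 311 and 314 to 125, 129 and 124 CPM. The 1 that rose was TM7SF2, a sterol reductase late in the pathway, from 104, 100.4 and 91.5 to 344, 354 and 347 CPM, and it overlaps VPS51 on the same strand. Among fatty acid genes ELOVL6, which lengthens saturated chains, fell from 206, 219.6 and 221 to 84.4, 88.5 and 80.9 CPM, whereas SCD5, a desaturase, rose from 6.40, 2.91 and 4.42 to 20.5, 21.3 and 17.2 CPM. LIPG, the endothelial lipase, fell from 21.1, 21.4 and 19.7 to 3.42, 3.58 and 3.18 CPM, and LIPH and PNPLA7, both phospholipid lipases, rose by 2.45 and 1.99.

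Some genes of quiescence and some transcription factors rose, while most were not called. Of 23 tested CDK inhibitors and quiescence genes 7 rose (30.4%, beside 12.0% of all genes), 2 fell (8.7%, beside 7.19%) and 14 were not called (median 0.36). YPEL3, YPEL5 and YPEL2, of a small conserved family of zinc-binding proteins of which YPEL3 restrains growth, rose by 2.74, 1.77 and 1.22 on the log2 scale. YPEL3 went from 3.83, 2.57 and 3.67 to 25.3, 17.7 and 23.6 CPM, and PIK3IP1, an inhibitor of PI3 kinase, from 2.33, 2.57 and 1.57 to 12.8, 14.6 and 14 CPM. Of 28 tested p53 targets 2 rose and 4 fell, with AEN, an apoptosis-enhancing nuclease, at -1.63 and ZMAT3, an RNA-binding p53 target, at 1.15. Of 69 tested homeobox factors 16 rose (23.2%) and 2 fell (2.9%). SATB1, a genome organiser of T cells, rose from 2.91, 4.26 and 3.07 to 29.6, 27.5 and 29.5 CPM (log2 fold change 3.07, SE 0.17), MEIS3 by 1.93 and HOXC4 by 1.18, whereas DLX1 fell from 35.5, 31.9 and 37.5 to 14.8, 14.7 and 16.8 CPM. The retinoic acid receptor RARG rose by 1.17, and KLF10 and KLF11, induced by TGF-beta, fell to 14.6 and 6.21 from 37.6 and 14 CPM. Of 462 tested ZNF genes 21 rose (4.55%) and 7 fell (1.52%), both below the background.

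Among the falls outside the cell cycle, glycolysis and hypoxia genes were frequent. Of 37 tested 15 fell and 2 rose (median -0.87), and 9 fell under scaling by total counts. LDHA, which makes lactate, fell from 1505, 946 and 952 to 289.7, 292 and 295 CPM (log2 fold change -1.91, SE 0.11), ENO1, an enolase of glycolysis, from 1879, 1456 and 1420 to 409, 390.1 and 402 CPM, and GAPDH, often used as a loading control, from 3336, 2893 and 2786 to 1425, 1394 and 1376 CPM. HK2, the hexokinase that commits glucose to glycolysis, fell from 99.4, 55 and 55.8 to 15.4, 16.7 and 14.5 CPM, and VEGFA, the angiogenic factor raised in hypoxia, from 109.6, 57.1 and 55 to 23.7, 18.7 and 18.4 CPM. Vehicle replicate 1 stood above vehicle replicates 2 and 3 for all of these genes and for NDRG1, a hypoxia and androgen target (1522, 1057 and 1033 CPM with vehicle, 508, 489 and 497 CPM with Dox). Without vehicle replicate 1, 14 of the list fell and 3 rose, and the Dox libraries lay below each of the other 2 vehicle libraries for every gene named here. The GAPDH call was lost under scaling by total counts and under upper-quartile scaling, while its sign stayed.

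**Figure D5:**
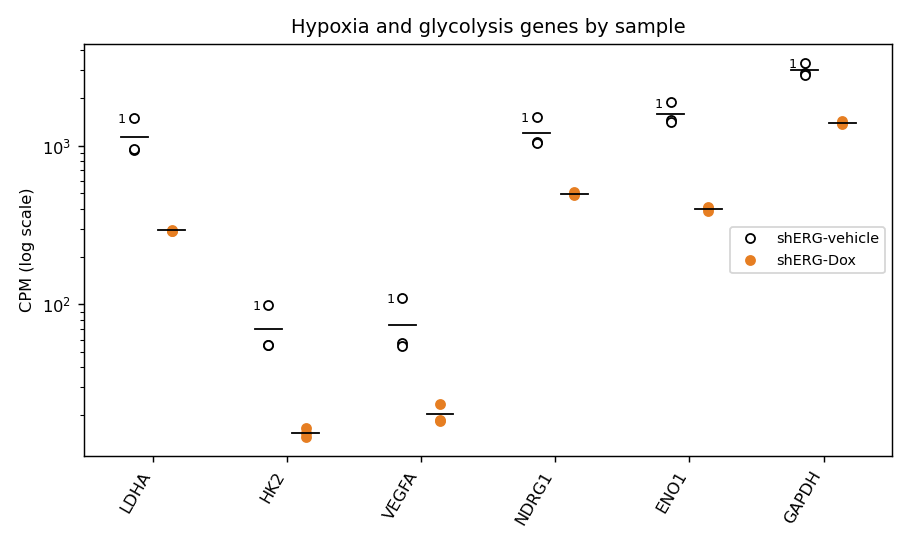
CPM (log scale) of 6 hypoxia and glycolysis genes in each of the 3 shERG-vehicle (open) and 3 shERG-Dox (orange) libraries, with bars at the group means and vehicle replicate 1 marked with its number. Replicate 1 is the highest vehicle library for each gene, and all Dox libraries are lower than all vehicle libraries.

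Lists of protein synthesis differed in how many genes fell. Of 75 tested ribosome biogenesis genes 40 fell and 0 rose (median -1.04), a count that was 16 under scaling by total counts, among them DKC1, a pseudouridine synthase of the nucleolus, from 269, 274 and 286 to 84.2, 79.9 and 86.5 CPM, and DDX21, an RNA helicase, from 614, 628 and 628 to 211, 216 and 219 CPM. NCL, the nucleolar protein nucleolin, fell from 1679, 1710 and 1699 to 610.1, 606 and 611 CPM. Of 32 tested nucleotide and one-carbon synthesis genes 18 fell and 0 rose (median -1.03, and 9 fell under scaling by total counts), with PAICS, a purine synthesis enzyme, going from 632, 595 and 589 to 183, 178 and 170.2 CPM. Of 84 tested cytosolic ribosomal protein genes, 2 fell (2.38%, below the 7.19% of all genes) while 82 were lower at an adjusted p under 0.05 alone, with a median of -0.72. Nuclear oxidative phosphorylation genes had a median of -0.46 (3 of 82 fell), mitochondrial ribosome genes -0.64 (8 of 77) and the 13 mitochondrially encoded genes -0.37 (0 called). PTMA, PPIA, HNRNPA1 and TUBA1B, all abundant housekeeping genes with processed pseudogene copies that may take some of their reads, fell to 359.8, 1150, 1036 and 686 CPM from 1227, 2382, 2180 and 1733 CPM. The calls of PPIA and HNRNPA1 were lost under scaling by total counts and by upper quartile.

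Amino acid transporters fell more often than they rose, and stress lists were mixed. Of 25 tested transporters 7 fell and 2 rose (median -0.73), and 4 fell under scaling by total counts. SLC38A1, a glutamine transporter, fell from 631, 630.3 and 644 to 212, 218 and 221 CPM, SLC43A1, a leucine transporter, from 29.4, 30.1 and 24.5 to 6.76, 6.68 and 8.99 CPM, and SLC7A2, a cationic amino acid transporter, from 396, 406 and 403 to 175, 169 and 177 CPM. In the integrated stress response list 4 of 27 fell and 0 rose, with STC2, a secreted stanniocalcin, at 112, 96.2 and 95.7 CPM with vehicle and 31.8, 26.6 and 29.5 CPM with Dox. HSPA5, the main chaperone of the endoplasmic reticulum, went from 2501, 2564 and 2550 to 1286, 1211 and 1285 CPM, just past the size required (log2 fold change -1.01, SE 0.021), and its value was -0.98 without Dox replicate 2 and -0.75 under scaling by total counts. Of 35 tested heat shock and chaperonin genes 4 fell and 3 rose, and of 27 tested NRF2 antioxidant genes 3 rose and 0 fell. HSPA1A, an inducible cytosolic HSP70 with a near-identical copy, rose by 1.37 on the log2 scale (SE 0.23). HSPD1 and HSPE1, mitochondrial chaperonins that share a promoter, had log2 fold changes of -1.54 and -1.16, and DERL3, which helps remove misfolded proteins, had -2.23. HSPD1 and HSPE1 overlap on opposite strands.

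Metallothioneins, small proteins that bind zinc and copper and are switched on by metals, were among the 10 largest falls. Promoters of 2 of the 3 named are shown, that of MT1E not being analysed here, because both are dense in the metal response element, TGCACNC or TGCGCNC with N any base, on either strand and in capitals. They are RefSeq promoters on GRCh38.p14, at chr16:56682220-56682519 and chr16:56608334-56608633, both on the plus strand.
MT1X: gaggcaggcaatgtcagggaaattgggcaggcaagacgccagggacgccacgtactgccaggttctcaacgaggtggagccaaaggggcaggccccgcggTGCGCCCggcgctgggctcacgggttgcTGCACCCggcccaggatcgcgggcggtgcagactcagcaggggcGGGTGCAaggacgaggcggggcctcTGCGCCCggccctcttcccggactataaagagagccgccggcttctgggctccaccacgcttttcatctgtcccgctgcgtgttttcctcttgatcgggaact
MT2A: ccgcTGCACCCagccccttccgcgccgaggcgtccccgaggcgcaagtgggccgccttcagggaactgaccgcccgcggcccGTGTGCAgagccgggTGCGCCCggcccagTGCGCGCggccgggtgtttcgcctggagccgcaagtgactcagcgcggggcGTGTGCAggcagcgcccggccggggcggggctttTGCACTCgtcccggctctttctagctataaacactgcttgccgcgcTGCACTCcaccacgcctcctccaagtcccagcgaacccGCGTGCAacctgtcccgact
The MT1X promoter holds 4 matches and that of MT2A 8. Such a match was in 29.3% of all promoters of this length, in 40.5% of those of lower genes and in 39.8% of those of tested genes that were neither higher nor lower, so the short motif alone does not mark the genes that fell. This motif, too, was picked after the values were seen.

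MT2A fell from 69.5, 58.5 and 59.5 to 14.3, 10.7 and 14.1 CPM (log2 fold change -2.25, SE 0.11), MT1E from 87.2, 77 and 71.9 to 16.2, 14.4 and 14.9 CPM (log2 fold change -2.36, SE 0.094) and MT1X from 29.9, 25.6 and 24.6 to 5.81, 5.44 and 4.50 CPM (log2 fold change -2.33, SE 0.15). The groups lay far apart for all 3, but metallothionein genes are near-identical copies, so the split of reads between them is uncertain. The zinc importer SLC39A8 fell from 9.23, 8.32 and 8.46 to 2.40, 1.94 and 1.94 CPM, beside the rise of the exporter SLC30A4 above. Over the whole list of 25 tested metallothioneins and zinc transporters 6 fell and 3 rose, and the median of -0.20 turned to 0.06 under scaling by total counts. NPR3, the clearance receptor for natriuretic peptides, had the largest fall on the log2 scale among genes of this level, from 12.1, 13 and 12.4 to 1.89, 1.32 and 3.26 CPM (log2 fold change -2.62, SE 0.24), and GRIN3A, a glutamate receptor subunit, fell from 18.3, 18.1 and 20.7 to 4.58, 3.89 and 2.87 CPM.

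The share of promoters with a given motif is set here beside the calls. A RefSeq promoter was matched for 10947 of the 14164 genes tested, of which 1209 were higher, 748 lower and 8990 neither. The strict ETS motif CCGGAAG was in 6.20% of promoters of higher genes, 18.9% of those of lower genes and 20.2% of those of the others, beside 10.7% of all 27305 promoters. The MYC E-box CACGTG was in 6.20%, 15.9% and 9.84% in the same order, the E2F motif GGCGGGAA in 2.65%, 9.09% and 5.14%, and the NF-Y motif CCAAT in 30.8%, 46.4% and 36.9%. The TATA box TATAAA was in 7.78%, 9.09% and 5.48%, and the CREB and ATF motif TGACGTCA in 2.48%, 4.81% and 3.23%. Median promoter GC content was 65.7%, 64.5% and 65.3%. Each motif was searched on both strands, and these shares are descriptions without a test. The groups were not matched for level. The median in shERG-vehicle was 1.43 CPM over all higher genes, 44.3 CPM over all lower genes and 23.4 CPM over all genes tested. Level and response therefore cannot be told apart in these shares.

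The response to Dox in shERG cells was set beside that to PBITE-1 at 12 h in VCaP cells labelled without the hairpin, which has its own DMSO libraries, so that no sample was shared. The line and the agent differ together, the labels give no duration of Dox, and these cannot be told apart. The difference of the 2 responses passed the same thresholds in 4095 of 14164 genes (28.9%). Among the 20 largest rises with Dox, which were chosen for that rise, 16 responded differently, and log2 fold changes with PBITE-1 ran from -3.18 to 4.76. IL23R had a log2 fold change of 0.61 with PBITE-1, LDLRAD1 -2.46 and ABCA1 0.76. Among the 10 largest rises in CPM, 3 differed, and ADAM9 had -0.17 with PBITE-1 beside 1.96 with Dox. Of the 10 largest falls on the log2 scale 6 differed, and of the 10 largest falls in CPM 2 did. Metallothioneins took opposite directions, with MT1X at 3.62 with PBITE-1 and -2.33 with Dox (difference -5.95, SE 0.24, adjusted p = 2.48e-25).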

How the data were processed

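RNA-seq libraries were made from ribosome-depleted total RNA with a KAPA RNA Hyper+RiboErase kit and sequenced as paired reads. The authors deposited 1 table of whole-number counts per gene (Ensembl identifiers, 22034 genes). The submitters' processing notes name STAR, featureCounts and hg38, whereas the study's methods name Kallisto, so which program made the counts is open, and the annotation and strand setting are not given in the sources used here. Symbols were matched for 22011 identifiers.

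From these counts, genes were kept by edgeR (4.0.16) filterByExpr over the 6 groups of the series, scaled by TMM and tested by limma-voom (3.58.1, R 4.3.3) on the 6 shERG libraries alone, with Benjamini-Hochberg adjustment. The difference from PBITE-1 was an interaction contrast over all 18 libraries. On simulated counts for this comparison (14164 genes, 200 changed by 2 on the log2 scale) 199 were recovered with 0 false calls. The changed genes were drawn only above a minimum expected count, and every gene was given the same spread. Recovery of changes in genes below that count was therefore not examined. Pairs of replicates differed by more than counting noise. Genes named are ERG, MYC and CDKN1A, and, by size among called genes without overlap, with a mean count of at least 50 and outside the S phase, G2/M and MYC target lists, the 20 largest rises and 10 largest falls in log2 fold change and the 10 largest of each in CPM, plus up to 4 per functional list. A few genes that this rule names are not reported here. These members and lists were chosen with earlier results of these data known. Library size, upper quartile and RLE scaling, edgeR quasi-likelihood, DESeq2 (1.42.0), other filters, a replicate block and leaving out each library were the alternatives.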

Additional observations from a re-analysis of the deposited data

Results flagged for a closer look

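The response to Dox in shERG cells and the response to PBITE-1 at 12 h in VCaP cells labelled without the hairpin differed by a test of the difference itself (the limma-voom contrast of the 2 responses) for 9 genes among those with the largest changes that moved the opposite way past the threshold in each comparison. The difference, as the log2 fold change with Dox minus that with PBITE-1, was -5.95 for MT1X, -5.35 for MT1E and -5.18 for MT2A, all metallothioneins, and -4.86 for the lipase LIPG. It was 3.66 (SE 0.10) for sucrase-isomaltase (SI), 4.93 (SE 0.47) for MAGI2, 5.04 (SE 0.28) for SYTL5, 7.27 (SE 0.86) for IGLON5 and 8.04 (SE 0.90) for LDLRAD1. In the vehicle libraries IGLON5 had 8, 14 and 5 counts and LDLRAD1 1, 5 and 2, so their sizes are loose. The 9 genes were 4 of the 20 largest rises and 4 of the 10 largest falls on the log2 scale, and 1 of the 10 largest rises in CPM. In SI, for example, the log2 fold change was 2.49 with Dox and -1.17 with PBITE-1, and in LIPG -2.60 and 2.26. Cell line and agent differ between the 2 comparisons, the labels give no duration of Dox, and these cannot be told apart, and the genes were picked for their change with Dox.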

How the results depend on the processing

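Requiring at least 10 counts in every sample left 12309 genes and 1033 that rose, since that filter removes genes near 0 in vehicle. Scaling by library size alone gave 506 that fell, and no limit on the fold change gave 4969 higher and 5005 lower genes. Leaving out each of the 6 shERG libraries in turn gave 1641 to 1705 higher genes, 959 to 1040 lower genes and 4026 to 4059 genes whose response differed from that to PBITE-1. edgeR's quasi-likelihood test called 1679 higher and 1015 lower, and DESeq2 1599 and 972. Of 148 counts of rises or falls within a list, 64 moved by over 1.5 times under scaling by library size, 31 under upper-quartile scaling and 53 when at least 10 counts were required everywhere. Under that requirement rises numbered 7 among sodium, calcium and TRP channels, 8 among potassium channels, 8 among protocadherins, 10 among axon guidance genes and 7 among collagens and laminins. No PBITE-1 or parental DMSO library was left out. The log2 fold change of ERG stayed between -1.18 and -1.47 over the alternatives.

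Replicate numbers did not pair the samples: same-numbered libraries had correlations of their deviations of 0.00803, 0.0120 and 0.0204. With a replicate block 1658 genes rose and 1011 fell, and ERG had a log2 fold change of -1.45.

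Among genes named in the text, the log2 fold change of KLK3, which was not called, turned to 0.0177 when scaled by library size only. Under that scaling falls close to the size required, among them ITGA2, ITGA6, FZD4, ROR1, HSPE1, KLF11, DLX1, NDRG1 and SLC7A2, kept their direction but not their call, because it raises all values by the shift in the median from 0.018 to 0.279.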
